A study of Mus musculus with 6 samples.

Results

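The genes described here encode the respiratory chain and the ATP synthase, and their transcripts were measured in exosomes, small vesicles that cells release into the medium. They were chosen by symbol, as every gene whose name begins with mt-, Ndufa, Ndufb, Ndufc, Ndufs, Ndufv, Cox4 to Cox8, Uqcr or Atp5, together with Sdha, Sdhb, Sdhc and Sdhd. This took 102 of the 12384 genes listed, 13 encoded on the mitochondrial chromosome and 89 in the nucleus, with 224 of the 27544 listed transcripts. The libraries came from exosomes of mature and of immature dendritic cells, grown from bone marrow of C57BL/6 mice, with 3 libraries in each group. Cells of both groups were cultured to day 7 with GM-CSF at 20 ng/ml and IL-4 at 10 ng/ml, in medium with serum depleted of vesicles. The mature cells then received LPS at 5 µg/ml and the immature cells PBS, for 24 h, and exosomes were collected from fresh medium after 48 h by differential ultracentrifugation. No measure of the purity of the vesicles was analysed here, and no label states that libraries of 1 group are separate mice or cultures, so p-values measure the spread between these libraries, which may be technical.

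Oxidative phosphorylation passes electrons from NADH and succinate through complexes I to IV of the inner mitochondrial membrane to oxygen, and complex V, the ATP synthase, uses the proton gradient so formed to make ATP. Mitochondrial DNA encodes a few core subunits of complexes I, III, IV and V, which are copied as long polycistronic transcripts from promoters in the control region and translated inside the organelle. All other subunits, and all of complex II, are encoded in the nucleus, translated in the cytosol and imported. In dendritic cells, activation through Toll-like receptors is known to shift metabolism from oxidative phosphorylation towards glycolysis.

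The values were FPKM, fragments scaled by transcript length and by the mapped fragments of the library, summed over the transcripts of a gene, so that levels of different genes are given per length. Read totals are unknown. Summed FPKM was 130401, 281368 and 245683 in mature libraries 1 to 3, against 145370, 135814 and 213737 in immature libraries 1 to 3. Mature 1 and immature 2 stood apart: they held 12924 and 10912 transcripts at 0.5 FPKM or more, where the other 4 libraries held 15432 to 18775. For several results that rest on them, values without them are given as well. All 15 dendritic cell markers were listed, with a summed level of 2297 to 3556 FPKM in mature and 1040 to 2069 FPKM in immature libraries. Macrophage and monocyte markers summed to 147 to 526 FPKM in mature and 131 to 182 FPKM in immature libraries, with none of the 10 at 0 throughout. Neutrophil markers summed to 334 to 2050 FPKM in mature and 233 to 1405 FPKM in immature libraries. Mast cell and basophil markers summed to 31.0 to 68.4 FPKM in mature and 6.47 to 15.4 FPKM in immature libraries. Cma1 and Tpsb2 were not among the genes listed. The dendritic cell and the mast cell sums were thus higher in every mature than in every immature library, while the macrophage and neutrophil sums overlapped. Taken as a share of each library's summed FPKM, the dendritic cell sums overlapped too. They were 2345 of 281368 FPKM in mature 2 and 2069 of 135814 FPKM in immature 2. The mast cell sums stayed apart as a share. Of the markers in these lists 1, of the macrophage and monocyte list, was higher past the adjusted threshold described below. T and NK cell markers summed to 12.4 to 56.4 FPKM in mature and 5.47 to 24.8 FPKM in immature libraries. Cd2, Cd4, Ncr1 and Trac were not among the genes listed. B and plasma cell markers summed to 1.97 to 4.47 FPKM in mature and 1.06 to 5.17 FPKM in immature libraries. Ighm and Jchain were not among the genes listed. Erythroid and platelet markers summed to 58.2 to 315 FPKM in mature and 44.0 to 489 FPKM in immature libraries. The part of these other cells in the results below was not tested, and in RNA of a vesicle preparation fewer vesicles of a kind and less RNA in each cannot be told apart.

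The mitochondrially encoded genes varied widely between libraries of the same group. Their summed level was 1226, 337 and 254 FPKM in mature libraries 1 to 3, against 410, 3464 and 149 FPKM in immature libraries 1 to 3. The highest sum was 23.3 times the lowest, both in the immature group, and the mature libraries lay between them. The 89 nuclear genes summed to 2743, 5345 and 4459 FPKM in mature libraries 1 to 3, against 3262, 3254 and 4651 FPKM in immature libraries 1 to 3, a 1.95-fold range. The ratio of mitochondrially to nuclear encoded FPKM was 0.447, 0.0631 and 0.0570 in mature libraries 1 to 3, against 0.126, 1.06 and 0.0320 in immature libraries 1 to 3. It was highest in immature 2 and next in mature 1, and the groups overlapped. On the log2 scale the ratio averaged -3.09 ± 1.67 in mature and -2.62 ± 2.55 in immature libraries (SD, n = 3 each). The difference, mature minus immature, was -0.47, and it became 0.89 without immature 2, 0.05 without mature 3, -0.02 without mature 2, -1.44 without mature 1, -1.64 without immature 3 and -0.08 without both libraries that stood apart.

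**Figure D1:**
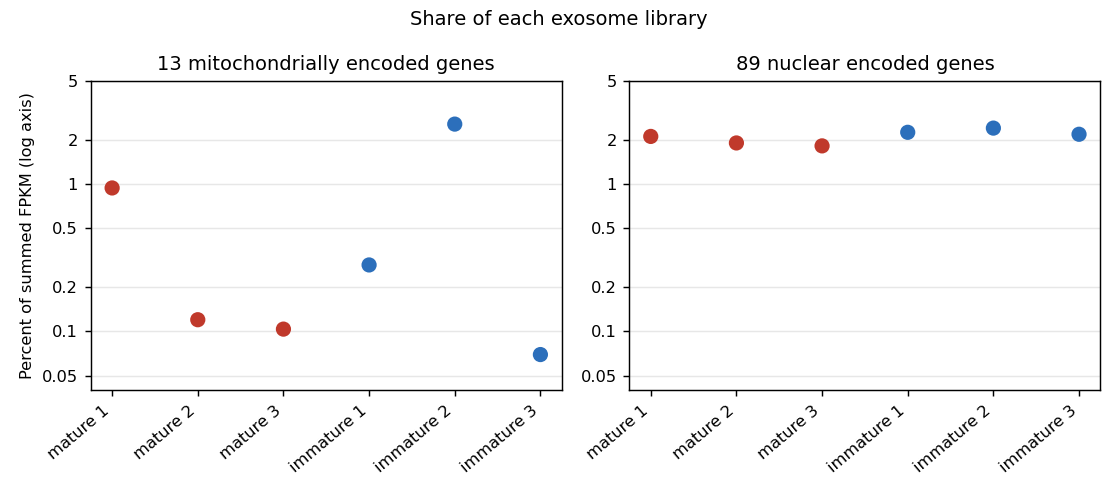
Percent of each library's summed FPKM (log axis) in the 13 mitochondrially encoded genes (left) and the 89 nuclear genes (right), 1 point per library. The left points run from 0.0696% to 2.55% with the groups intermixed, and the right points lie between 1.81% and 2.40%, each mature library below every immature one.

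As a share of a library's summed FPKM, mitochondrially encoded transcripts made up 0.940%, 0.120% and 0.104% in mature libraries 1 to 3, against 0.282%, 2.55% and 0.0696% in immature libraries 1 to 3. Nuclear members made up 2.10%, 1.90% and 1.81% in mature libraries 1 to 3, against 2.24%, 2.40% and 2.18% in immature libraries 1 to 3. The nuclear share was thus nearly level across libraries, at a mean of 1.94% ± 0.15 in mature and 2.27% ± 0.11 in immature libraries (SD, n = 3 each), and the groups did not overlap. No test was made of this summed value. Cytosolic ribosomal protein transcripts took 11.7%, 19.4% and 12.99% of mature libraries 1 to 3, against 23.4%, 12.4% and 33.4% of immature libraries 1 to 3. Their part in the lower nuclear share was not tested.

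The mitochondrial chromosome is listed with 1 transcript per gene, at the positions listed in the table. Complex IV dominated. mt-Co1, the catalytic subunit of cytochrome c oxidase (M:5328-6872, plus strand), had 848, 183 and 71.9 FPKM in mature libraries 1 to 3, against 257, 2225 and 0 FPKM in immature libraries 1 to 3. It was the highest mitochondrial gene in 4 of the 6 libraries and took 28.3% to 69.2% of the mitochondrial sum in the mature libraries, against 62.6%, 64.2% and 0% in immature libraries 1 to 3. mt-Co2, which carries the copper centre that accepts electrons from cytochrome c (M:7013-7696), had 107, 28.7 and 34.7 FPKM in mature libraries 1 to 3, against 30.8, 272 and 45.8 FPKM in immature libraries 1 to 3. mt-Co3 (M:8607-9390) had 83.4, 29.0 and 31.5 FPKM in mature libraries 1 to 3, against 32.4, 142 and 25.6 FPKM in immature libraries 1 to 3. All 3 genes peaked in immature 2 with mature 1 second. In immature 3, where mt-Co1 is listed at 0, mt-Co2 was the highest mitochondrial gene, and an exact 0 in an estimated FPKM can be a failed estimate.

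Among the complex I genes of the mitochondrial chromosome mt-Nd1 led, and mt-Nd6 alone lies on the minus strand. mt-Nd1 (M:2751-3707), a core membrane subunit, had 71.0, 27.5 and 83.1 FPKM in mature libraries 1 to 3, against 37.9, 296 and 27.2 FPKM in immature libraries 1 to 3. mt-Nd4 (M:10167-11544), a proton-pumping subunit, had 42.9, 6.38 and 5.28 FPKM in mature libraries 1 to 3, against 8.13, 43.8 and 8.35 FPKM in immature libraries 1 to 3. mt-Nd5 (M:11742-13565), another proton-pumping subunit, had 11.7, 7.34 and 3.18 FPKM in mature libraries 1 to 3, against 5.71, 49.2 and 5.36 FPKM in immature libraries 1 to 3. In each of these genes immature 2 was the highest library, while mature 3 was the second highest for mt-Nd1 and the lowest for mt-Nd4 and mt-Nd5. mt-Nd6 (M:13552-14070) had 12.6, 10.97 and 7.30 FPKM in mature libraries 1 to 3, against 11.2, 211 and 14.0 FPKM in immature libraries 1 to 3. Its rise in immature 2 was not shared by mature 1, and it overlaps mt-Nd5 by 14 bases on the other strand. How reads were assigned to strands is not given in the sources used here, so reads of mt-Nd6 and of antisense RNA from the plus-strand transcript cannot be told apart.

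The other mitochondrial genes followed this order less closely, apart from mt-Cytb. mt-Nd2 (M:3914-4951) had 10.4, 7.29 and 2.95 FPKM in mature libraries 1 to 3, against 3.62, 5.23 and 4.94 FPKM in immature libraries 1 to 3. mt-Nd3 (M:9459-9806) had 0.332, 2.99 and 3.38 FPKM in mature libraries 1 to 3, against 0.790, 3.91 and 2.88 FPKM in immature libraries 1 to 3. Both encode membrane subunits of complex I, and mt-Nd2 was highest and mt-Nd3 lowest in mature 1, the library that was second highest for 7 of the 13 mitochondrial genes. mt-Atp8, a small subunit of the ATP synthase (M:7766-7969), had 8.59, 14.9 and 10.9 FPKM in mature libraries 1 to 3, against 8.50, 18.9 and 14.4 FPKM in immature libraries 1 to 3. mt-Cytb, the cytochrome b of complex III (M:14145-15288), had 23.0, 19.2 and 0 FPKM in mature libraries 1 to 3, against 14.1, 113 and 0 FPKM in immature libraries 1 to 3. It is thus listed at 0 in 1 library of each group.

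mt-Atp6, the proton channel subunit of the ATP synthase (M:7927-8607), had 0.184, 0.186 and 0.196 FPKM in mature libraries 1 to 3, against 0.221, 23.9 and 0.205 FPKM in immature libraries 1 to 3. mt-Nd4l (M:9877-10173) had 6.99, 0 and 0 FPKM in mature libraries 1 to 3, against 0, 59.8 and 0 FPKM in immature libraries 1 to 3. Neither passed the filter for testing. mt-Atp6 was at or above 0.5 FPKM only in immature 2, although it shares 43 bases with mt-Atp8 and lies against mt-Co3, which were detected in all 6 libraries. RefSeq lists the pseudogene Gm10925 on chromosome 1 (24613971 to 24614651) with 681 bases, the length of mt-Atp6, and the pseudogene Gm10222 (24612404 to 24612700) with 297 bases, the length of mt-Nd4l. Nuclear copies of this kind can take reads of the mitochondrial gene, and their part in the low values was not tested.

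**Figure D2:**
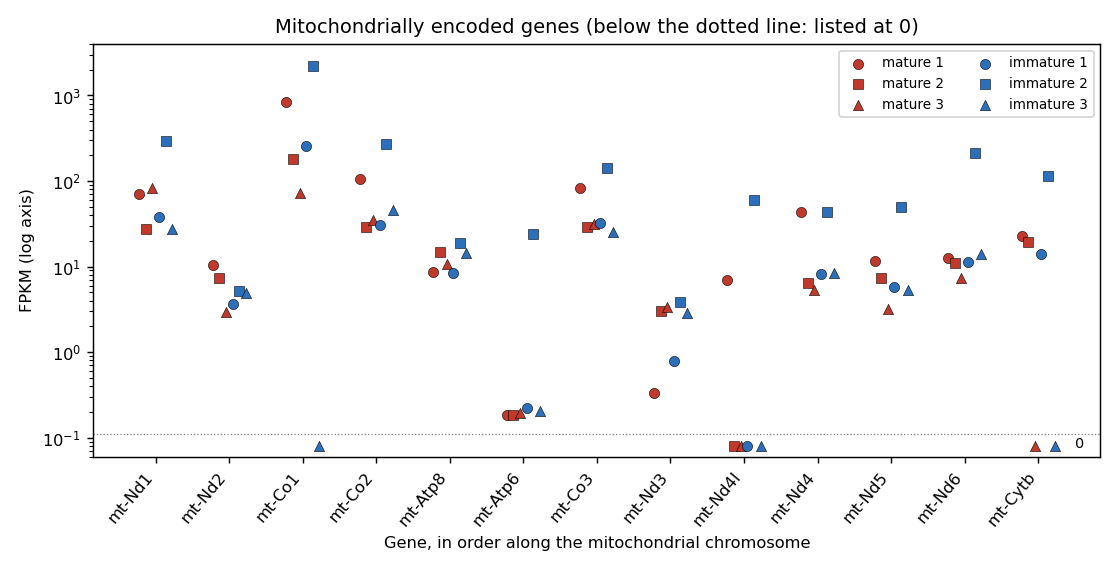
FPKM (log axis) of the 13 mitochondrially encoded genes in their order along the chromosome, 1 marker per library, with values of 0 drawn below the dotted line. Immature 2 is the highest library for every gene but mt-Nd2, and mt-Atp6 is near 0.2 FPKM in all other libraries.

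No mitochondrially encoded gene passed the test of mature against immature exosomes. Of 11 tested, 0 passed an adjusted p of 0.05 in limma (Benjamini-Hochberg over all 10277 genes tested) and 0 had an unadjusted p under 0.05. Over all genes tested, 0.185% were higher and 0% lower past the adjusted threshold, while an unadjusted p under 0.05 was reached by 9.52% in the higher and 0.224% in the lower direction. In 0 of the 11 did the groups separate, against 16.7% of all genes with the 3 mature values above the 3 immature values and 0.642% with them below. The median difference of log2(FPKM + 1), mature minus immature, was -0.30, with 2 positive and 9 negative values, where the median of all genes was 0.38. On this scale changes of genes with low FPKM are understated. The smallest p belonged to mt-Nd6, at 10.3 ± 2.7 FPKM in mature and 78.9 ± 115 FPKM in immature libraries (SD, n = 3 each), with a log2 difference of -1.62 (SE 0.93, limma adjusted p = 0.600). mt-Co1 had a positive log2 difference of 1.44 (SE 2.20, limma adjusted p = 0.882) although its mean was lower in mature, at 368 ± 420 FPKM, than in immature libraries, at 827 ± 1217 FPKM (SD, n = 3 each). The sign of this difference turned, to -1.75, without immature 3, the library listed at 0. The median over the 11 genes was 0.46 without immature 2, -0.69 without mature 1 and 0.13 without both, so its sign turned with immature 2 alone.

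Among themselves most mitochondrial genes varied together. Over the 6 libraries, the correlation of log2(FPKM + 1) of a tested gene with the mean of the 11, which includes the gene itself, had a median r of 0.85 and exceeded 0.8 for 8 of the 11. It was 0.37 for mt-Nd2, 0.36 for mt-Atp8 and 0.01 for mt-Nd3. With the mean of the 79 tested cytosolic ribosomal protein genes, the 11 genes had a median r of -0.62, with 7 under -0.5 and 2, mt-Nd3 at 0.37 and mt-Atp8 at 0.19, above 0. Over all genes tested the median r was 0.50 with the ribosomal protein mean and -0.49 with the mitochondrial mean. The mean FPKM of mature 1 and immature 2 exceeded that of the other 4 libraries in 10 of the 11 genes, with a median ratio of 5.40. The same was so for 20 of 86 tested nuclear members (23.3%), with a median ratio of 0.771, and for 17.4% of all genes tested, with a median ratio of 0.547. The mean of both libraries can be carried by immature 2, as in mt-Nd6 and mt-Atp8, where mature 1 was not the second highest library. In most of the other mitochondrial genes tested it was. Mature 1 and immature 2 also held the fewest transcripts, and the part of library complexity in the mitochondrial values was not tested.

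Of the genes outside the set with a mean of at least 10 FPKM, Tomm6, Gm26870, Dynlrb1, Gm10800 and Gm10722 had the highest correlation with the mean of the mitochondrial genes over the 6 libraries, with r of 0.98, 0.95, 0.94, 0.93 and 0.93. Tomm6, a small subunit of the import pore of the outer mitochondrial membrane, had 28.8, 23.7 and 10.2 FPKM in mature libraries 1 to 3, against 13.2, 115 and 9.80 FPKM in immature libraries 1 to 3. Gm10800 had 230, 30.2 and 46.7 FPKM in mature libraries 1 to 3, against 11.7, 1486 and 8.72 FPKM in immature libraries 1 to 3. In both genes immature 2 was the highest library and mature 1 the next. The correlations describe 6 libraries that share their differences in complexity.

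With no rescaling of the libraries, the nuclear members separated by group about as often as genes in general. Of 86 tested, 0 passed the adjusted threshold, 5 were higher at an unadjusted p under 0.05 (5.81%, against 9.52% of all genes) and 0 were lower. The 3 mature values lay above the 3 immature values in 14 (16.3%, against 16.7% of all genes) and below them in 1, Ndufaf4. With coding transcripts only, 0 lay below (beside 0.623% of all genes). The median log2 difference of the nuclear members was 0.20, with 61 positive and 25 negative values, below the median of 0.38 over all genes. This level depends on the scaling of the libraries. Median of ratios scaling put the median of all genes at 0.02, that of the nuclear members at -0.28 and that of the mitochondrially encoded genes at -0.74. It left 5 nuclear members with the mature values above (5.81%, against 7.58% of all genes) and 13 below (15.1%, against 6.1%). With TPM scaling, added after the data were seen, 5 nuclear members were above (5.81%, against 10.1% of all genes) and 5 below (5.81%, against 4.1%). The count with mature values above was 34 without mature 1 (39.5%, beside 40.8% of all genes) and 24 without immature 2 (27.9%, beside 23.4% of all genes). It was 48 without both, which is 55.8% of the nuclear members beside 48.3% of all genes, with 1 below beside 3.57% of all genes.

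**Figure D3:**
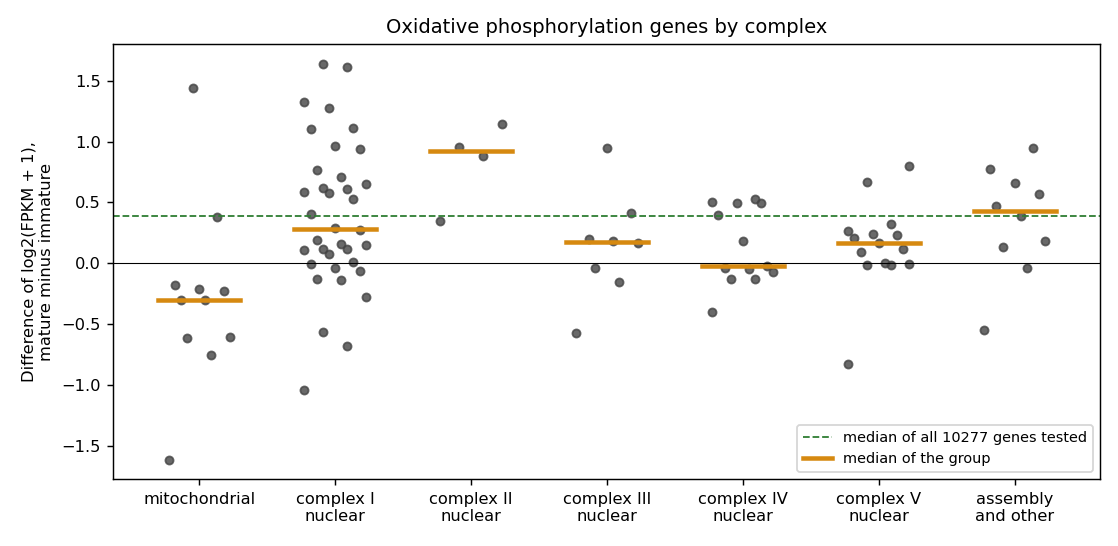
Difference of log2(FPKM + 1), mature minus immature, for each tested gene (points) by complex, with the median of each group (orange) and of all 10277 genes tested (green dashed). Complex II has the highest median, 0.92, and complex IV the lowest of the nuclear groups, -0.03, while the mitochondrially encoded genes have a median of -0.30.

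Complex II, succinate dehydrogenase, had the highest median of the nuclear groups, and 3 of its 4 genes were higher in every mature than in every immature library, as were 16.7% of all genes tested. Sdhd, which anchors the enzyme in the membrane (chr9:50596357-50603812, minus strand), had 36.6, 53.8 and 47.4 FPKM in mature libraries 1 to 3, against 24.1, 21.3 and 23.3 FPKM in immature libraries 1 to 3. Sdhc, the other membrane anchor (chr1:171127165-171150603, minus strand), had 15.4, 18.6 and 15.1 FPKM in mature libraries 1 to 3, against 8.64, 4.24 and 8.55 FPKM in immature libraries 1 to 3. Sdhb, the iron-sulfur subunit (chr4:140961203-140979193, plus strand), had 14.5, 21.3 and 17.7 FPKM in mature libraries 1 to 3, against 10.2, 7.41 and 9.94 FPKM in immature libraries 1 to 3. The groups were apart in each of these genes, and immature 2 was the lowest library in all of them. Sdha, the flavoprotein that oxidises succinate (chr13:74322254-74350280, minus strand), had 13.9, 22.4 and 19.9 FPKM in mature libraries 1 to 3, against 13.6, 24.5 and 8.48 FPKM in immature libraries 1 to 3. Its groups overlapped, with the highest and the lowest value both among immature libraries.

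None of the 4 passed the adjusted threshold. Sdhc had the smallest p, at 16.4 ± 1.9 FPKM in mature and 7.14 ± 2.52 FPKM in immature libraries (SD, n = 3 each), with a log2 difference of 1.14 (SE 0.47, limma adjusted p = 0.465). The 4 genes together summed to 80.4, 116 and 100.1 FPKM in mature libraries 1 to 3, against 56.6, 57.5 and 50.3 FPKM in immature libraries 1 to 3. Complex II made up 2.93%, 2.17% and 2.24% of the nuclear members' FPKM in mature libraries 1 to 3, against 1.73%, 1.77% and 1.08% in immature libraries 1 to 3, and neither sum nor share overlapped between groups. The median log2 difference of the 4 genes was 0.92. With median of ratios scaling it was 0.44 with the same number of genes, 3, apart, and with upper quartile scaling it was 0.41 with 1 gene apart. Without immature 2 all 4 genes, Sdha among them, had mature above (beside 23.4% of all genes). The same was so without both immature 2 and mature 1 (beside 48.3% of all genes). The promoters of Sdhd and Sdhb are shown as RefSeq gives them on GRCm38.p6, from 100 bases before to 20 bases after the annotated start. Both hold a match to a motif described for respiratory genes. Sdha, whose groups overlapped, also held an NRF1 match in the longer window of the motif search below, and its promoter is not shown. A link between such matches and the separation of the groups was not tested. Capitals mark matches to the NRF1 motif and to the ETS family motif CCGGAAG on either strand, which for Sdhd are 1 of each and for Sdhb 1 ETS match. The window of Sdhd is chr9:50603830-50603949, minus strand, and that of Sdhb chr4:140961171-140961290, plus strand.
Sdhd: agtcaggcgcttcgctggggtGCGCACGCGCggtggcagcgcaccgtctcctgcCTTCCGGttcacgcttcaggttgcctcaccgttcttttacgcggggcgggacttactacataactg
Sdhb: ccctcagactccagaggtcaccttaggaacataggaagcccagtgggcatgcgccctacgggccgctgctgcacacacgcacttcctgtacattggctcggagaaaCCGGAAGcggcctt

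**Figure D4:**
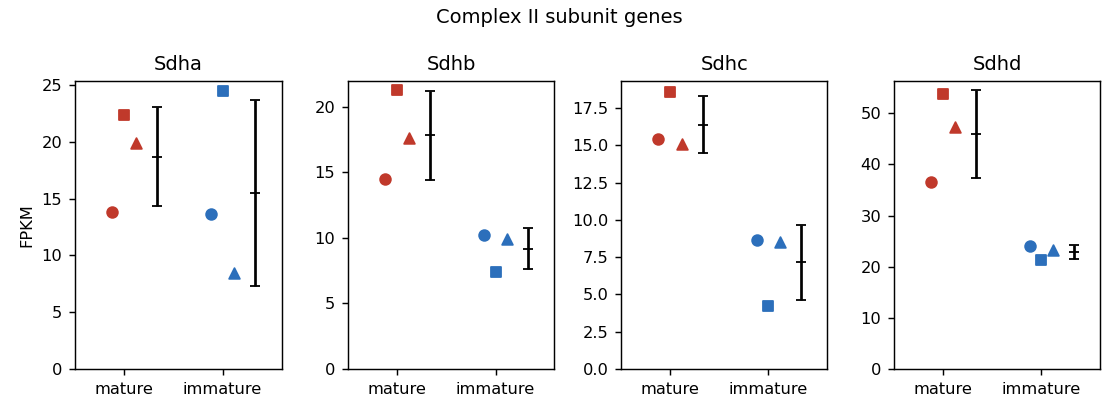
FPKM of the 4 complex II genes in each mature and immature library (points; circle, square and triangle for libraries 1, 2 and 3), with the mean and SD in black (n = 3). For Sdhb, Sdhc and Sdhd each mature library is above every immature one, while the immature values of Sdha run from 8.48 to 24.5 FPKM.

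Complex I, the NADH dehydrogenase, has the most nuclear members, and 4 of its 36 genes were higher at an unadjusted p under 0.05 (beside 9.52% of all genes), 0 were lower, and in 8 each mature library exceeded each immature one (beside 16.7% of all genes). With median of ratios scaling 1 was higher and 2 were lower by the same unadjusted criterion (beside 480 and 237 of all 10277 genes). The mature values lay above in 1 and below in 6 (beside 7.58% and 6.1% of all genes). With upper quartile scaling 0 were higher and 2 lower (beside 461 and 258 of all 10277 genes). Again 1 was above and 6 were below (beside 7.48% and 6.47% of all genes). Without immature 2 and mature 1, the mature values lay above in 23 (63.9%, beside 48.3% of all genes) and below in 0 (beside 3.57%). Ndufs7, whose protein holds the last iron-sulfur cluster before ubiquinone (chr10:80249121-80256794, plus strand), had 17.8, 29.1 and 45.9 FPKM in mature libraries 1 to 3, against 18.1, 4.52 and 7.28 FPKM in immature libraries 1 to 3. Ndufs5, an accessory subunit (chr4:123712710-123718202, minus strand), had 28.8, 40.6 and 31.9 FPKM in mature libraries 1 to 3, against 16.4, 3.12 and 18.9 FPKM in immature libraries 1 to 3. Ndufs6, an accessory subunit that binds zinc (chr13:73319838-73328542, minus strand), had 17.2, 14.7 and 31.0 FPKM in mature libraries 1 to 3, against 4.77, 9.01 and 9.10 FPKM in immature libraries 1 to 3. The groups were apart for Ndufs5 and Ndufs6, while for Ndufs7 immature 1 lay above mature 1. These 3 genes had the smallest p of all nuclear members. The log2 difference was 1.64 for Ndufs7 (SE 0.59, limma adjusted p = 0.405). It was 1.32 for Ndufs6 (SE 0.50, limma adjusted p = 0.427) and 1.61 for Ndufs5 (SE 0.63, limma adjusted p = 0.442). Across the alternatives that kept all libraries these differences ran from 1.05 to 1.76 for Ndufs7 and Ndufs5 and from 0.83 to 1.43 for Ndufs6. Without immature 2 they were 1.24 for Ndufs7, 0.89 for Ndufs5 and 1.45 for Ndufs6. Without both immature 2 and mature 1 they were 1.58 for Ndufs7, 0.99 for Ndufs5 and 1.55 for Ndufs6. The fourth gene at an unadjusted p under 0.05 was Ndufv1, which carries the NADH-binding flavin site, at 15.2 ± 1.7 FPKM in mature and 6.98 ± 3.40 FPKM in immature libraries (SD, n = 3 each, limma adjusted p = 0.501).

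At the other end, Ndufa12, an accessory subunit (chr10:94198955-94221443, plus strand), had 6.92, 6.53 and 13.1 FPKM in mature libraries 1 to 3, against 13.4, 42.1 and 10.8 FPKM in immature libraries 1 to 3. Ndufs1, which carries iron-sulfur clusters (chr1:63143596-63176833, minus strand), had 1.72, 6.47 and 3.62 FPKM in mature libraries 1 to 3, against 5.45, 7.85 and 5.75 FPKM in immature libraries 1 to 3. In both genes immature 2 was the highest library and the groups overlapped. The log2 difference was -1.04 for Ndufa12 (SE 0.59, limma adjusted p = 0.591) and -0.68 for Ndufs1 (SE 0.52, limma adjusted p = 0.700), and without immature 2 and mature 1 these were -0.34 and -0.17. The most abundant complex I subunits were Ndufa2, Ndufb9 and Ndufv3. Ndufa2 averaged 75.6 ± 19 FPKM in mature and 66.8 ± 11 FPKM in immature libraries (SD, n = 3 each). Ndufb9 averaged 55.9 ± 20.6 FPKM in mature and 43.3 ± 3.4 FPKM in immature libraries (SD, n = 3 each). Ndufv3, an accessory subunit of the NADH-binding module, averaged 47.0 ± 10.4 FPKM in mature and 36.9 ± 14.4 FPKM in immature libraries (SD, n = 3 each). For all 3 the groups overlapped. Of the 7 Ndufaf assembly factors tested 0 had an unadjusted p under 0.05, and Ndufaf4 had 0.965, 1.18 and 0.920 FPKM in mature libraries 1 to 3, against 1.24, 3.17 and 1.80 FPKM in immature libraries 1 to 3. With coding transcripts only, its groups were not apart in this direction.

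In complex III, which passes electrons from ubiquinol to cytochrome c, 1 of the 8 nuclear genes had groups apart with mature above (beside 16.7% of all genes) and 0 had an unadjusted p under 0.05. That gene was Uqcrc1, a core subunit (chr9:108936633-108949623, plus strand), with 21.2, 19.8 and 30.9 FPKM in mature libraries 1 to 3, against 13.6, 18.4 and 6.28 FPKM in immature libraries 1 to 3. Its log2 difference was 0.95 (SE 0.51, limma adjusted p = 0.567). Uqcrfs1, the Rieske iron-sulfur protein, had 33.04, 180 and 90.3 FPKM in mature libraries 1 to 3, against 88.1, 30.8 and 131 FPKM in immature libraries 1 to 3. Mature 1 and immature 2 were the lowest libraries for Uqcrfs1, the reverse of most mitochondrial genes, including mt-Cytb of the same complex. The small subunit genes Uqcr10 and Uqcr11 were steadier. Uqcr10 had 111, 156 and 148 FPKM in mature libraries 1 to 3, against 109.6, 180 and 92.3 FPKM in immature libraries 1 to 3. Uqcr11 had 49.6, 80.6 and 79.2 FPKM in mature libraries 1 to 3, against 57.4, 103 and 74.7 FPKM in immature libraries 1 to 3. Both were highest in immature 2, and the groups overlapped.

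Complex IV, cytochrome c oxidase, has paralogous forms of several nuclear subunits, and the libraries held almost wholly the widely expressed forms. Cox4i1, the general form of subunit IV, had 34.4, 189 and 130 FPKM in mature libraries 1 to 3, against 89.7, 27.7 and 148 FPKM in immature libraries 1 to 3. Its relative Cox4i2, known from lung, had 1.23 FPKM in mature 2 and is listed at 0 in the other 5 libraries. Cox6a1 had 85.1, 117 and 131 FPKM in mature libraries 1 to 3, against 79.4, 80.5 and 72.2 FPKM in immature libraries 1 to 3, with the groups apart. The striated muscle forms were near 0. Cox6a2 had 0, 0.879 and 2.52 FPKM in mature libraries 1 to 3, against 1.21, 0 and 0 FPKM in immature libraries 1 to 3, and was the complex IV gene of smallest p outside the 3 most abundant, with a log2 difference of 0.53 (SE 0.51, limma adjusted p = 0.771). Cox7a1, another form of muscle, had 0, 1.44 and 2.28 FPKM in mature libraries 1 to 3, against 1.84, 0 and 0 FPKM in immature libraries 1 to 3. Both genes were above 0 in the same 3 libraries, mature 2, mature 3 and immature 1. Cox8b had 1.23 FPKM in immature 2 and is listed at 0 in the other 5 libraries. Cox6b2, known from testis, had 0, 2.01 and 0 FPKM in mature libraries 1 to 3, against 0.444, 0 and 1.24 FPKM in immature libraries 1 to 3. Cox4i2, Cox6b2 and Cox8b did not pass the filter, which left 13 of the 16 complex IV genes tested.

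Of those 13 complex IV genes 0 had an unadjusted p under 0.05 (beside 9.52% of all genes higher and 0.224% lower). Groups were apart in 1, Cox6a1 (beside 16.7% of all genes with mature above). With median of ratios scaling 0 had mature above and 2 below (beside 7.58% and 6.1% of all genes). Cox8a had 189, 192 and 221 FPKM in mature libraries 1 to 3, against 141, 138 and 541 FPKM in immature libraries 1 to 3, and immature 3 stood far above the other libraries. Cox7c had 54.1, 278 and 177 FPKM in mature libraries 1 to 3, against 168, 123 and 303 FPKM in immature libraries 1 to 3. Cox6b1 averaged 101 ± 28 FPKM in mature and 101 ± 10 FPKM in immature libraries (SD, n = 3 each), the closest pair of means among these genes. Cox7a2 averaged 59.3 ± 13 FPKM in mature and 61.2 ± 18 FPKM in immature libraries (SD, n = 3 each). Cox7b averaged 53.0 ± 13.2 FPKM in mature and 48.3 ± 21.9 FPKM in immature libraries (SD, n = 3 each). Ndufa4, named for complex I but known as a complex IV subunit, had 5.20, 17.6 and 6.51 FPKM in mature libraries 1 to 3, against 5.28, 8.18 and 16.5 FPKM in immature libraries 1 to 3. All of these overlapped between groups. Its hypoxia-induced relative Ndufa4l2 had 1.36, 0 and 1.16 FPKM in mature libraries 1 to 3, against 0, 0 and 0.574 FPKM in immature libraries 1 to 3. Cox7a2l, which promotes supercomplexes of the respiratory chain, was the most abundant gene counted outside the complexes, at 102, 354 and 168 FPKM in mature libraries 1 to 3, against 176, 70.4 and 334 FPKM in immature libraries 1 to 3.

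The ATP synthase held the largest share of the nuclear members' FPKM, 32.7% to 35.04% in mature and 33.4% to 33.9% in immature libraries. Atp5a1, the alpha subunit, had 101, 355 and 223 FPKM in mature libraries 1 to 3, against 160, 97.6 and 331 FPKM in immature libraries 1 to 3. Atp5b, the catalytic beta subunit that pairs with it, had 117, 138 and 140 FPKM in mature libraries 1 to 3, against 75.3, 132 and 56.2 FPKM in immature libraries 1 to 3. The pair thus ran differently across libraries: immature 3 was the second highest library for Atp5a1 and the lowest for Atp5b. Atp5e, the epsilon subunit, had 190, 174 and 261 FPKM in mature libraries 1 to 3, against 167, 232 and 113 FPKM in immature libraries 1 to 3. Atp5l, subunit g, had 100, 261 and 237 FPKM in mature libraries 1 to 3, against 172, 128 and 222 FPKM in immature libraries 1 to 3. Both overlapped between groups. Atp5k, subunit e (chr5:108433244-108434448, minus strand), had 15.1, 24.3 and 18.6 FPKM in mature libraries 1 to 3, against 20.6, 54.0 and 37.0 FPKM in immature libraries 1 to 3. It had the smallest p of the complex, with a log2 difference of -0.83 (SE 0.51, limma adjusted p = 0.628), which was -0.36 without immature 2 and mature 1.

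Atp5g1, Atp5g2 and Atp5g3 encode the same mature protein, subunit c of the proton-driven ring, from separate genes. Atp5g1 had 35.7, 36.0 and 41.0 FPKM in mature libraries 1 to 3, against 29.7, 29.5 and 34.0 FPKM in immature libraries 1 to 3. Atp5g2 had 33.1, 178 and 98.3 FPKM in mature libraries 1 to 3, against 96.2, 27.1 and 227 FPKM in immature libraries 1 to 3. Atp5g3 had 55.8, 177 and 132 FPKM in mature libraries 1 to 3, against 92.6, 136 and 108 FPKM in immature libraries 1 to 3. Atp5g1 was nearly level and apart between groups, while Atp5g2 spanned the widest range of the 3 genes, lowest in immature 2 and highest in immature 3. Reads may be shared between such similar genes.

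The contrast between Atp5g1 and Atp5g2 recurred among the nuclear members. Over the 6 libraries, the correlation of a nuclear member with the mean of the cytosolic ribosomal protein genes ran from -0.74 to 0.98, with a median r of 0.33, and it exceeded 0.8 for 14 of the 86 (16.3%, beside 25.5% of all genes tested). The highest values were 0.98 for Atp5g2, 0.98 for Ndufb4, 0.95 for Cox7a2l, 0.95 for Atp5a1 and 0.95 for Uqcrfs1, and Cox7c and Cox4i1 had 0.93 and 0.92. At the other end were Ndufv3 at -0.74, Ndufs3, a core subunit of complex I, at -0.71, Atp5e at -0.66, Uqcrc1 at -0.57 and Atp5b at -0.52. Members at both ends were picked after their values were seen, and these correlations over 6 libraries are a description. Of the ribosomal protein genes themselves none passed the test, with 0 of 79 tested at an unadjusted p under 0.05 and a median log2 difference of -0.26.

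**Figure D5:**
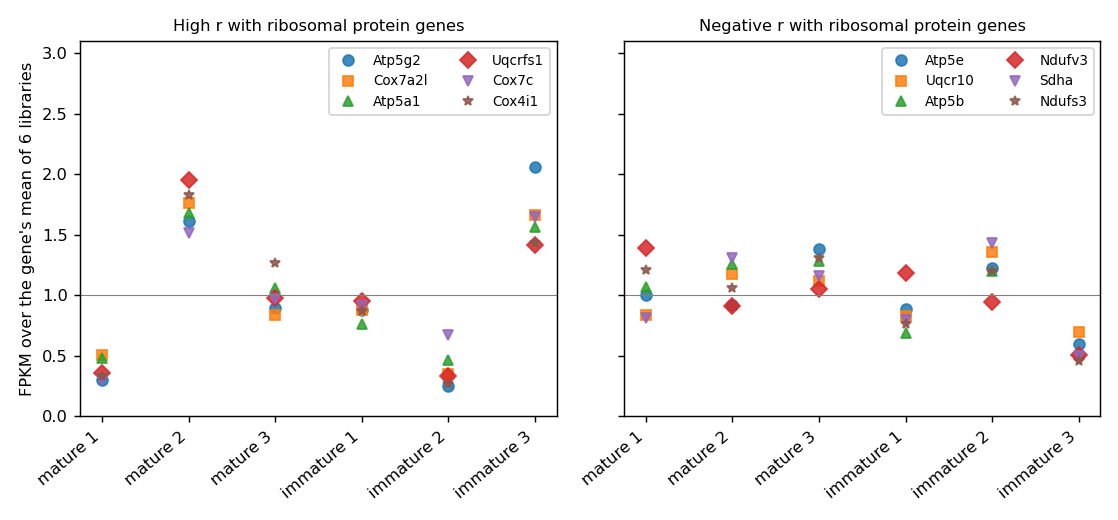
FPKM of 6 nuclear genes with high (left) and 6 with negative correlation (right) with ribosomal protein genes, each over its own mean of the 6 libraries, chosen after their values were seen. On the left mature 1 and immature 2 are low and mature 2 and immature 3 high for all 6 genes, while on the right immature 3 is the lowest library for all 6.

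Cytosolic ribosomal protein genes are known for a run of pyrimidines at the transcription start, so the RefSeq promoters were searched for a run of at least 8 C or T overlapping the 20 bases around the annotated start, a search added after the data were seen. Of 74 nuclear members with a promoter in the table, 7 had such a run (9.46%), beside 13.5% of the 27025 genes in it and 27 of 61 cytosolic ribosomal protein genes (44.3%). Among tested members, the run was present in 5 of 12 with r over 0.8 (41.7%) and in 2 of the other 60 (3.33%). Among other tested genes it was no more frequent at r over 0.8, with 254 of 1934 (13.1%), than in the rest, with 787 of 5845 (13.5%). The members with a run were Atp5g2, Cox7a2l, Uqcrfs1, Cox7c, Ndufb5, Atp5e and Uqcrc1, and the last pair were among those with negative correlations above. The 4 sequences below are shown because these genes held the run and had r of 0.93 to 0.98 with ribosomal protein genes. Capitals mark the run. Ndufb4 and Atp5h, with r of 0.98 and 0.94, had promoters without a run and are not shown. They run from 100 bases before to 20 bases after the start on GRCm38.p6, at chr15:102671028-102671147 for Atp5g2, chr17:83514314-83514433 for Cox7a2l, chr13:30545297-30545416 for Uqcrfs1 and chr13:86046776-86046895 for Cox7c, all on the minus strand.
Atp5g2: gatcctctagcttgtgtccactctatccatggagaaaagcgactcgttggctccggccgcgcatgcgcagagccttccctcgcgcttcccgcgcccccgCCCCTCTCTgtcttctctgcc
Cox7a2l: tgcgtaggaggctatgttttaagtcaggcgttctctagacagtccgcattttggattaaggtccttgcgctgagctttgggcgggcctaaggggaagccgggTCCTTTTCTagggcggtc
Uqcrfs1: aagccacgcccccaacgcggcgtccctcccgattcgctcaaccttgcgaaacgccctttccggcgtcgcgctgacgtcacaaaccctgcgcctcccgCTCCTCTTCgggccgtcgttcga
Cox7c: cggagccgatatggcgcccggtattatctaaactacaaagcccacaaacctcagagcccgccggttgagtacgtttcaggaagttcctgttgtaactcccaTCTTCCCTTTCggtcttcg

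Motifs of factors known to drive nuclear respiratory genes were searched on both strands from 250 bases before to 50 bases after the start. The NRF1 motif was found in 18 of the 74 member promoters (24.3%), beside 4.78% of all 27025. The ETS family motif CCGGAAG was found in 17 (23.0%), beside 9.12% of all. The YY1 motif AAGATGGCG was found in 7 (9.46%), beside 1.49% of all. A match describes the letters and not a bound site.

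By isoform, 61 members had more than 1 listed transcript, and in 40 of them the same transcript led in every library in which the gene reached 0.5 FPKM. The leading transcript by mean was protein coding in all but Ndufaf6. Of 159 member transcripts tested, 0 passed the adjusted threshold, beside 0.0626% higher and 0.0125% lower of all 15972 transcripts. At an unadjusted p under 0.05, 8 were higher (7.39% of all transcripts) and 2 lower (0.682% of all). The 3 mature values lay above the immature values in 18 (13.1% of all) and below them in 2 (1.39% of all). Their median log2 difference was 0.15, beside 0.31 over all transcripts.

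Ndufa12 was made of a pair of coding isoforms whose shares of the gene differed between the groups. Ndufa12-201 had 3.41, 6.53 and 2.55 FPKM in mature libraries 1 to 3, against 0.352, 0.156 and 0.606 FPKM in immature libraries 1 to 3. Ndufa12-204 had 3.51, 0.005 and 10.5 FPKM in mature libraries 1 to 3, against 13.1, 41.9 and 10.2 FPKM in immature libraries 1 to 3. Thus Ndufa12-201 took 49.3%, 99.9% and 19.5% of the gene in mature libraries 1 to 3, against 2.61%, 0.373% and 5.62% in immature libraries 1 to 3, and the groups were apart. The log2 difference was 1.85 for Ndufa12-201 (limma adjusted p = 0.366) and -2.34 for Ndufa12-204 (limma adjusted p = 0.550). Isoform values depend on how reads were divided among transcripts.

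Ndufs6-201 had 16.6, 14.6 and 30.5 FPKM in mature libraries 1 to 3, against 3.17, 3.52 and 9.09 FPKM in immature libraries 1 to 3 (limma adjusted p = 0.419). Atp5g3-204, a processed transcript with no listed coding sequence, had 1.11, 1.16 and 2.31 FPKM in mature libraries 1 to 3, against 7.12, 31.8 and 2.89 FPKM in immature libraries 1 to 3 (limma adjusted p = 0.541). The groups were apart in both transcripts. Ndufaf4-202, also a processed transcript, had 0.260, 0.088 and 0.022 FPKM in mature libraries 1 to 3, against 0.658, 2.39 and 0.604 FPKM in immature libraries 1 to 3 (limma adjusted p = 0.627). It was below the immature values in each mature library, as was the sum of the gene. With coding transcripts only, the Ndufaf4 difference was positive, as for all 7 Ndufaf factors (beside 7568 of 9786 genes). The lower gene sum of Ndufaf4 thus rested on this processed transcript. Non-coding isoforms made up 3.42%, 1.83% and 2.95% of the nuclear members' FPKM in mature libraries 1 to 3, against 2.43%, 3.12% and 1.19% in immature libraries 1 to 3. This was below their share of all transcripts, 6.53% to 8.31% in mature and 8.21% to 9.97% in immature libraries.

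Genes that serve oxidative phosphorylation without matching the symbols above were taken from lists, and 0 passed the adjusted threshold in any of these pathway lists. Their counts are to be read beside the values over all genes tested, of which 9.52% were higher at an unadjusted p under 0.05, 16.7% had all mature values above and 0.642% below, and 7853 of 10277 had a positive difference, at a median of 0.38, which was 0.02 with median of ratios scaling. Of 24 genes of the tricarboxylic acid cycle and pyruvate dehydrogenase tested, 1 was higher at an unadjusted p under 0.05 and 5 had groups apart with mature above, at a median log2 difference of 0.54. Suclg1, a subunit of succinyl-CoA ligase, had 11.7, 9.82 and 10.0 FPKM in mature libraries 1 to 3, against 4.98, 1.89 and 5.30 FPKM in immature libraries 1 to 3. Mdh2, the mitochondrial malate dehydrogenase and most abundant of the list, averaged 71.8 ± 18 FPKM in mature and 46.2 ± 15 FPKM in immature libraries (SD, n = 3 each), with the groups overlapping. Of 11 carriers tested, 3 were higher at an unadjusted p under 0.05 and 3 had groups apart, and all 11 differences were positive, at a median of 0.58. Slc25a1, the citrate carrier, had 13.2, 16.5 and 20.5 FPKM in mature libraries 1 to 3, against 5.93, 4.30 and 5.94 FPKM in immature libraries 1 to 3 (limma adjusted p = 0.326). Slc25a3, the phosphate carrier that feeds the ATP synthase, averaged 110 ± 58 FPKM in mature and 97.7 ± 32.7 FPKM in immature libraries (SD, n = 3 each). The mitochondrial ribosomal protein genes, whose products translate the mitochondrial transcripts, had 10 of 78 higher at an unadjusted p under 0.05, 18 with mature above and 1 below, at a median of 0.50. Mrps11 had 2.56, 2.65 and 5.98 FPKM in mature libraries 1 to 3, against 0.767, 0 and 0.262 FPKM in immature libraries 1 to 3 (limma adjusted p = 0.240). Mrps21, the most abundant, averaged 76.7 ± 20.3 FPKM in mature and 75.6 ± 14.7 FPKM in immature libraries (SD, n = 3 each).

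The list of ATP synthase, respirasome and assembly factors outside the symbols above had 3 of 42 higher at an unadjusted p under 0.05 (beside 9.52% of all genes), at a median of 0.29. Of the 42, 6 had mature above (beside 16.7% of all genes) and 1 below (beside 0.642%). Foxred1, an assembly factor of complex I, had 6.85, 2.56 and 0.901 FPKM in mature libraries 1 to 3, against 0, 0 and 0.807 FPKM in immature libraries 1 to 3. The 1 gene below was Atpif1, the inhibitor of ATP hydrolysis by the synthase, with 40.9, 52.2 and 52.1 FPKM in mature libraries 1 to 3, against 73.0, 113 and 64.8 FPKM in immature libraries 1 to 3 (limma adjusted p = 0.659). Cytochrome c and coenzyme Q genes had 1 of 14 higher at an unadjusted p under 0.05 and 4 with mature above, at a median of 0.47. Coq8b, of coenzyme Q synthesis, had 3.71, 3.23 and 3.12 FPKM in mature libraries 1 to 3, against 0.937, 0.561 and 1.85 FPKM in immature libraries 1 to 3. Cyc1, the cytochrome c1 of complex III, averaged 23.5 ± 9.4 FPKM in mature and 14.2 ± 9.4 FPKM in immature libraries (SD, n = 3 each). The import list had 1 of 25 higher and 4 with mature above, at a median of 0.21. Timm13, a chaperone of the intermembrane space, had 25.0, 19.3 and 20.8 FPKM in mature libraries 1 to 3, against 9.06, 11.8 and 5.22 FPKM in immature libraries 1 to 3. Its relative Timm8b, the most abundant of the list, averaged 62.8 ± 27.0 FPKM in mature and 46.3 ± 24.0 FPKM in immature libraries (SD, n = 3 each). In none of these 3 lists was a gene lower at an unadjusted p under 0.05.

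Genes of mitochondrial DNA upkeep and transcription, with regulators of biogenesis, had a median of 0.33, with 2 of 17 with mature above (beside 16.7% of all genes). Of the 17, 1 was higher at an unadjusted p under 0.05 (beside 9.52% of all genes). That gene was Polg, the mitochondrial DNA polymerase, with 2.21, 2.80 and 3.29 FPKM in mature libraries 1 to 3, against 0.235, 0.145 and 1.76 FPKM in immature libraries 1 to 3 (limma adjusted p = 0.436). Yy1, the factor whose motif was searched above, averaged 13.5 ± 6.1 FPKM in mature and 10.7 ± 3.9 FPKM in immature libraries (SD, n = 3 each). Ppargc1a, a coactivator of mitochondrial biogenesis, and Polrmt, the mitochondrial RNA polymerase, were not among the genes listed, so no value is known for them. Genes of mitochondrial RNA processing and decay had 0 of 20 at an unadjusted p under 0.05 and 0 with groups apart, at a median of 0.33. Mtpap, which adds poly(A) tails to mitochondrial transcripts, averaged 3.86 ± 1.23 FPKM in mature and 1.99 ± 0.59 FPKM in immature libraries (SD, n = 3 each). Hsd17b10, a part of mitochondrial RNase P, had 4.70, 22.6 and 17.1 FPKM in mature libraries 1 to 3, against 6.60, 7.44 and 9.13 FPKM in immature libraries 1 to 3. Neither gene was apart between groups. Mtpap was highest in mature 1, at 4.82 FPKM, and lowest in immature 2, at 1.53 FPKM, and Hsd17b10 was lowest in mature 1.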

How the data were processed

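RNA of 6 exosome libraries was measured, and groups and replicate numbers come from the sample titles; a treatment tag that reads untreated for all 6 was not used, since the labels' protocol gives LPS or PBS. The authors deposited 1 FPKM value per transcript and library, per the file headers. Per the submitters' processing notes StringTie, STAR 2.5.2b, HISAT2 2.0.5 and cutadapt were used, with no role given, on the human build hg19, but the rows carry mouse identifiers and positions are as the table lists them. Depth is unknown: whole reads could not be recovered from the FPKM values, so no intervals for counting error are given.

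FPKM was summed per gene. Genes and transcripts at 0.5 FPKM or more in at least 3 of 6 libraries entered limma 3.58.1 (R 4.3.3; robust fit with an intensity trend), run on log2(FPKM + 1) values, with Benjamini-Hochberg adjustment over all of them and 0.05 as the threshold. The test was tried on simulated data. Sums, shares and correlations are descriptions made in Python 3.11.15. No label states that replicate numbers pair the libraries, so the main fit used no block. The members, lists and tests were chosen with earlier results of these data known. Genes named with values were every mitochondrial gene, the 3 most abundant nuclear subunits of each complex with the next of smallest p, the 3 nuclear members of smallest p in each direction, paralogous subunit forms, the first of each list by p and by level, and the 3 transcripts of smallest p in each direction; others were chosen after their values were seen. A transcript and a marker are not reported here. Alternatives were another pseudocount, no filter, 4 other scalings, a replicate block, coding transcripts only and leaving out libraries. Promoters came from RefSeq on GRCm38.p6, matched by symbol for 74 of 89 nuclear members, 2 through a synonym.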

Additional observations from a re-analysis of the deposited data

How the results depend on the processing

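No member passed the adjusted threshold under any alternative run. Genes past it numbered 19 in all, 9 with a pseudocount of 0.1, 12 with median of ratios scaling, 5 with the replicate block, 73 without immature 2 and mature 1, and 1 (without mature 3) to 27 without a single library; it was 7 without immature 1. Transcripts past it numbered 12, 6 with each of the 4 scalings, 0 with the replicate block, 0 without both libraries, and 0 (without mature 3 or immature 2) to 7 (without mature 2) without a single library, with 1 without immature 1 and 5 without mature 1 or immature 3. Nuclear members higher at an unadjusted p under 0.05, of 86 tested, numbered 5 (beside 9.52% of all genes). With median of ratios, upper quartile, TPM and quantile scaling they numbered 1, 0, 2 and 0 (beside 4.67%, 4.49%, 5.95% and 4.25%). They numbered 3 with the replicate block (beside 6.01%) and 11, or 12.8%, without both libraries (beside 19.3%). Without a single library they numbered 1 without mature 3 (beside 3.77%) to 12, or 14.0%, without mature 1 (beside 16.9%). They numbered 3 without mature 2 (beside 6.40%) or immature 1 (beside 5.84%) and 2 without immature 2 (beside 8.28%). Nuclear members with mature above numbered 14 (beside 16.7% of all genes), and 5, 3, 5 and 2 under these scalings. These are 5.81%, 3.49%, 5.81% and 2.33% of the members (beside 7.58%, 7.48%, 10.1% and 6.84%). Nuclear members with mature above numbered 48, or 55.8%, without both libraries (beside 48.3%). Without a single library they numbered 15 without mature 3 (beside 18.4%) to 34, or 39.5%, without mature 1 (beside 40.8%). Nuclear members with mature below numbered 1 (beside 0.642% of all genes), and 13, 15, 5 and 11 under these scalings. These are 15.1%, 17.4%, 5.81% and 12.8% of the members (beside 6.1%, 6.47%, 4.1% and 7.66%). Members with mature below numbered 0 with coding transcripts only (beside 0.623%) and 1 to 4 without a single library (beside 0.944% to 4.15%). Deviations of same-numbered libraries from their group means had r of -0.03, -0.45 and -0.13. Differently numbered libraries had r of -0.40 to 0.53. With 3 libraries in a group such values cannot decide whether the numbers pair the libraries, and no label states a pairing. The block left 0 members past the threshold. TPM scaling was added after the data were seen. The log2 ratio of mitochondrial to nuclear FPKM differed by -0.47, by -1.06 from medians over tested members, and without a single library by -1.64 to 0.89. In such runs the mitochondrial share differed by -1.03 (without immature 3) to 0.21 percentage points (without immature 2), the nuclear share by -0.41 to -0.27 and the non-coding share by -0.04 to 0.94; as a median over members that share differed by 2.26. Log2 differences of mitochondrial genes turned with single libraries, from -0.95 to 0.75 for mt-Nd1, -1.75 to 3.81 for mt-Co1, -1.22 to 0.33 for mt-Co2, -0.52 to 0.011 for mt-Atp8, -0.69 to 0.54 for mt-Co3, -0.61 to 0.37 for mt-Nd3, -1.20 to 0.46 for mt-Nd4, -1.27 to 0.22 for mt-Nd5 and -2.40 to 1.01 for mt-Cytb. Without both libraries they were 0.56 for mt-Nd1, 0.18 for mt-Atp8, 0.067 for mt-Co3, 0.67 for mt-Nd3 and 0.21 for mt-Cytb, and mt-Nd2 was at -0.023, -0.046 and -0.053 with median of ratios, upper quartile and quantile scaling. The cause was not tested. A median in place of a sum could not be applied to the shares of the library.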
